A study of Mus musculus with 8 samples.

Results

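The genes examined here encode the proteins of the cytosolic ribosome. They were chosen by name alone: every gene row whose symbol was Rpl or Rps followed by a number and at most one of the letters a, l or x, or was Rplp0, Rplp1 or Rplp2, was taken, and Rps27l was left out. This gave 79 of the 22878 gene rows, comprising 43 genes of the large subunit, 30 of the small subunit, 3 of the large-subunit stalk and 3 tissue-restricted paralogues (Rpl3l, Rpl10l and Rpl39l). No symbol occurred more than once. The ribosomal protein genes with other names, such as Rpsa and Fau, fell outside the rule.

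Each ribosome carries 1 copy of almost every ribosomal protein beside its ribosomal RNAs, with the acidic stalk proteins as the known exception. The genes are scattered over the genome, are expressed together in all growing cells and are among the most abundant messengers of pluripotent stem cells. Their messengers usually begin with a C followed by an unbroken pyrimidine stretch, the 5′ terminal oligopyrimidine (TOP) motif, through which mTORC1 and Larp1 control their translation. The mouse genome also carries many processed pseudogenes made from these messengers.

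The RNA was sequenced in 5 mouse lines. R1 is an ESC line (2 libraries). 16-6 (2 libraries) was a secondary iPSC line from c-Kit+ hematopoietic progenitors of bone marrow, 32 (2 libraries) from adipocyte progenitors of inguinal fat, S8 (1 library) from epidermal cells and T2 (1 library) from stomach lining epithelium. The somatic cells came from adult all-iPSC mice that carried doxycycline-inducible Oct4, Sox2, c-Myc and Klf4, and doxycycline was withdrawn before the colonies were picked. Each origin is represented by 1 line, so origin and line cannot be told apart. All 5 lines grew on mitomycin C-treated mouse embryonic fibroblasts in medium with LIF, and the methods name no removal of these feeders. In these bulk samples, fewer cells of a type and less RNA per cell cannot be told apart. The study compared the lines to see whether iPSCs differed from ESCs, or among themselves, according to their tissue of origin.

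The 8 pluripotency markers examined, among them Pou5f1, Sox2 and Nanog, were all at 1 FPKM or more in every library. Levels differed between lines, with sums of 4044 and 4407 FPKM in R1, 2605 and 2669 in 16-6, 5101 and 4299.5 in 32, 5304.5 in S8 and 3516 in T2. Single markers went both ways. Zfp42 read 541 and 544 FPKM in R1, 119 in S8 and 92.9 in T2. Utf1 read 426 and 441 FPKM in R1, 1193 in S8 and 611 in T2. The 13 fibroblast markers examined were detected too, and all were at 1 FPKM or more in R1, 16-6, S8 and T2, with 12 of 13 in the libraries of 32, where Dcn was at 0.605 and 0.89 FPKM. Their summed level was 2440 and 2512 FPKM in R1, 5810 and 5764 in 16-6, 701 and 700 in 32, 1410 in S8 and 1758 in T2. FPKM stands for fragments per kilobase of transcript per 1000000 fragments. The values given here are the deposited FPKM divided by 12725.7, a common constant that sets the median library total to 1000000. The confidence limits of the deposited values implied, in units of 1000000, 15.5 to 16.7 fragments per library, of which 0.832 to 1.04 lay on the ribosomal protein genes. These implied numbers are on a common scale and are not the depth: the study lists far more reads, and a smaller share placed uniquely, for S8 and T2 than for the other libraries. In S8 and T2, depth, mapping and line cannot be told apart.

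The start sites and a pair of coding sequences are shown first, because the name rule used neither. Of the 79 genes, 58 had an entry among the RefSeq promoter sequences (GRCm38.p6), with 69 start sites. At 13 of these (18.8%) the annotated first base was a C followed by at least 4 bases that were each C or T, against 2.51% of all 32851 starts. When the tract was allowed to begin up to 5 bases to either side, the shares were 42.0% and 18.3%. The letters CGGAAG, the core bound by Ets factors, stood on either strand within the 250 bases before and 50 from the start at 59.4% of the ribosomal protein starts and at 16.9% of all starts. TATAAA between 40 and 15 bases before the start was found at 0 of the 69 starts and at 1.99% of all starts. The sequences below give 15 bases before and 15 from the annotated start for the 8 genes with the longest tracts, so that the motif can be seen in place, and for Rpl37 and Rpl10l, whose levels differ widely between the lines. Capitals mark the C at the start site and the pyrimidines that follow it, and neither Rpl37 nor Rpl10l has a C at the annotated base. Both were taken from named genes that lack the motif at that base, so its absence there was fixed by the choice.
Rpl15 (chr14:18270972-18271001, minus strand): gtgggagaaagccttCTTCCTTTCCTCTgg
Rpl35 (chr2:39005117-39005146, minus strand): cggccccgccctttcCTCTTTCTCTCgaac
Rps10 (chr17:27635230-27635259, minus strand): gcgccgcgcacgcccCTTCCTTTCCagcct
Rps18 (chr17:33955651-33955680, minus strand): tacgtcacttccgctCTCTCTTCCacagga
Rps6 (chr4:86857353-86857382, minus strand): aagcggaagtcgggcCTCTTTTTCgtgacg
Rpl28 (chr7:4792950-4792979, plus strand): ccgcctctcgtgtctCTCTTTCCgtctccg
Rpl35a (chr16:33056467-33056496, plus strand): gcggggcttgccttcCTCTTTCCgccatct
Rpl38 (chr11:114668565-114668594, plus strand): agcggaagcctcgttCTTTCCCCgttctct
Rpl37 (chr15:5116598-5116627, plus strand): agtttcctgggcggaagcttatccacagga
Rpl10l (chr12:66284387-66284416, minus strand): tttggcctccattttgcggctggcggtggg

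Rpl39 is an X-linked protein of the nascent chain exit tunnel, and Rpl39l is its autosomal paralogue, best known from testis. Their coding sequences (GENCODE M1) have the same length of 156 bases and differ at 23 of them, so 85.3% are identical. They are shown because short reads can tell these paralogues apart only where they differ, and capitals mark the differing bases.
Rpl39: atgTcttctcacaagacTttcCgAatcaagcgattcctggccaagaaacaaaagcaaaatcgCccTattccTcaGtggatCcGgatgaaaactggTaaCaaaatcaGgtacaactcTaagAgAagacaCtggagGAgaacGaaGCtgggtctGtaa
Rpl39l: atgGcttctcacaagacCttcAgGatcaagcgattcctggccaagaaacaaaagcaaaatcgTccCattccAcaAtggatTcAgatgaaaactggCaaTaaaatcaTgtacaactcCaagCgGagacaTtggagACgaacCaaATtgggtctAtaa

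The longest exact match of Rpl39l elsewhere in the genome was 47 bases, under the 50 bases used below as a copy. Rpl10 and its testis paralogue Rpl10l were 84.8% identical over 645 coding bases.

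The ribosomal protein genes were among the highest rows of every library. Without the 3 paralogues, the median of the 76 genes was 1802 FPKM (mean over the 8 libraries, quartiles 1206 and 2548). Of the 112 rows with a mean over 1000 FPKM, small RNA genes set aside, 60 were ribosomal protein genes. Together the 79 genes made up 14.2% to 17.5% of the summed FPKM, and 19.3% to 22.8% when small RNA genes were set aside. All of their values carried the status OK from Cufflinks.

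Levels still spread widely around this median, although the ribosome holds the proteins in equal number. Rpl41, which encodes a very short basic peptide of the large subunit, was highest with a mean of 8966 FPKM. Its libraries read 6770 and 7676 FPKM in R1, 8876 and 9264 in 16-6, 9351 and 9974 in 32, 11014 in S8 and 8801 in T2, so all 6 iPSC libraries lay above both R1 libraries. Rps26, a small-subunit protein beside the messenger exit channel, followed with 7365 FPKM, and Rpl35, at the exit of the peptide tunnel, with 5940 FPKM. At the other end, 12 of the 76 genes were under 500 FPKM and 8 under 200. The lowest by mean were Rpl21 at 7.89 FPKM and Rps27 at 23.3 FPKM, with the paralogue Rpl39l at 17.8 FPKM between them. Rpl3l, a paralogue of heart and skeletal muscle, had at most 1.08 FPKM in any library.

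**Figure D1:**
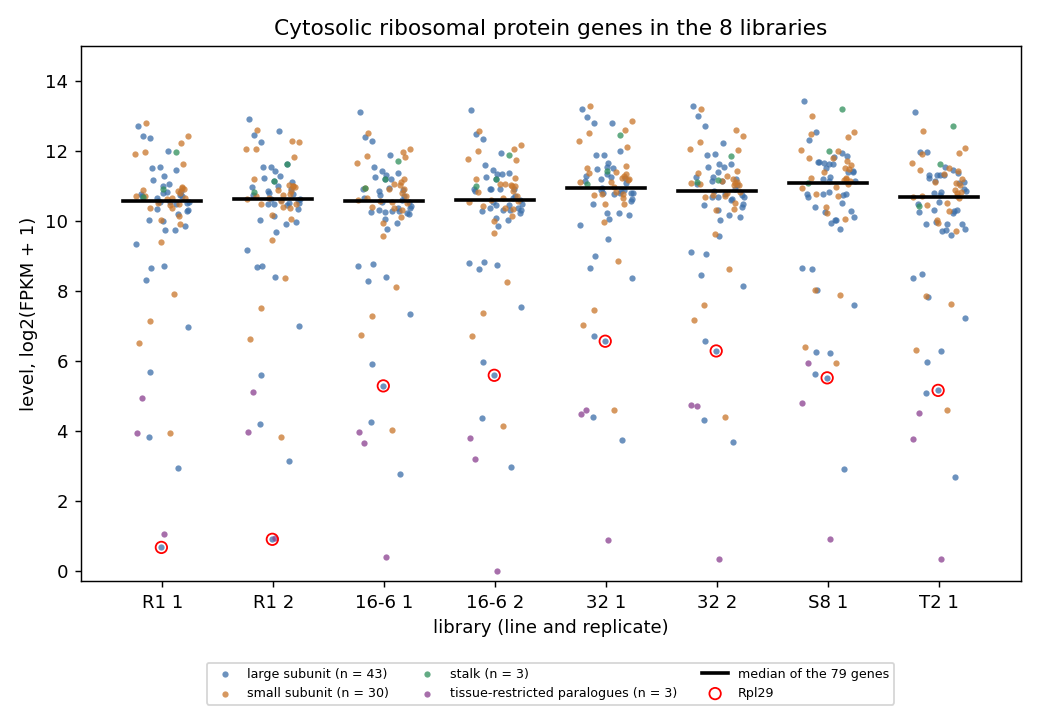
Level of the 79 ribosomal protein genes, as log2(FPKM + 1), in each library (line and replicate on the horizontal axis). Points are genes coloured by their place in the ribosome, bars are the medians of the 79 genes, which run from 10.56 to 11.08, and red circles mark Rpl29, under 1 in both R1 libraries and between 5 and 7 in the others.

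Part of the low values belonged to genes with many copies elsewhere in the genome. For 78 genes a coding sequence could be compared with the mouse genome of the files' build, and Rpl41 had none. In 75 of these, at least 1 stretch of 50 coding bases also stood, base for base, at another place outside the gene's own locus. Such stretches covered a median of 90.3% of the 50-base windows of a gene and over 90% in 40 genes. Which of the copies are processed pseudogenes was not determined. Rpl39l and Rpl3l were among the 3 genes with none. The authors kept uniquely aligned reads only, and a stretch of this kind alone matches more than 1 place. The 5 genes with more than 50 other places were Rpl7a (128 places), Rpl29 (90), Rpl21 (86), Rps2 (78) and Rpl17 (58). Their median was 42.0 FPKM and their highest mean was 540 FPKM, whereas the other 70 genes of the 2 subunits and the stalk had a median of 1930 FPKM. Across these 75 genes, the Spearman correlation of mean level with the number of places was -0.41, a description across genes that share libraries. Over all 78 genes, the correlation of level with the share of copied windows was 0.03. Whether the unique alignment set the low levels was not tested.

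**Figure D2:**
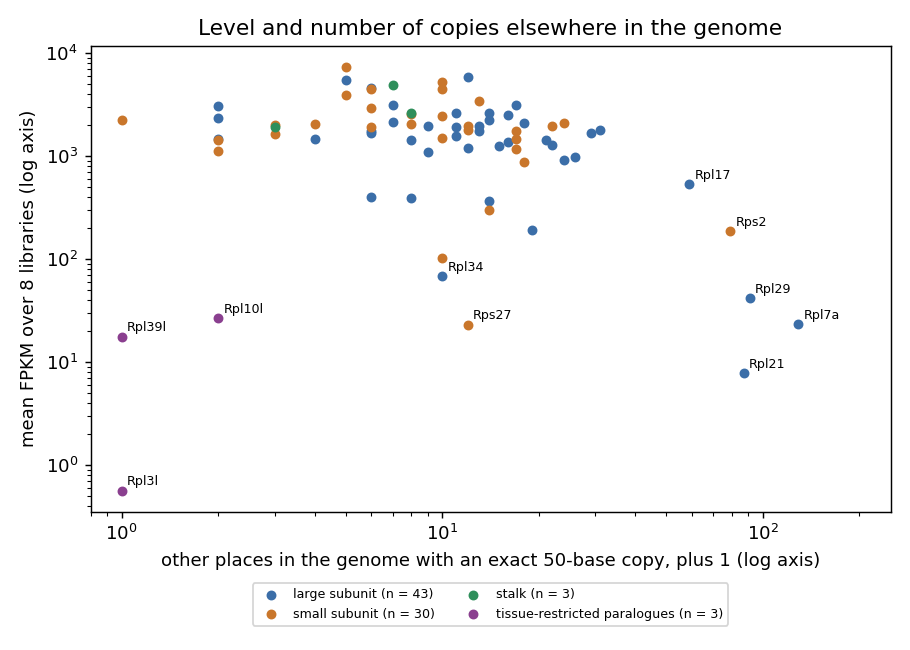
Mean FPKM over the 8 libraries against the number of other genomic places that hold an exact 50-base copy of the coding sequence, plus 1, both on log axes, for the 78 genes with a coding sequence. The 5 genes with more than 50 places lie at or below 540 FPKM, and named points without many places are Rpl34, Rps27 and the paralogues.

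At 6 loci the file listed a second gene name over at least 70% of the same interval, and most of the signal stood in that second row. Rps27 (chr3:90016589-90017570, mm9) encodes a zinc-binding protein of the small subunit. Its own row read 14.4 and 13.3 FPKM in R1, 15.4 and 16.5 in 16-6, 23.3 and 20.1 in 32, 60.4 in S8 and 23.3 in T2. The row Gm9846, on the same interval, held 3711 to 6692 FPKM. The Rps27 row thus carried 0.342% to 0.894% of the sum. Rpl34 carried 1.86% to 3.67% of the sum with Rpl34-ps1, Rpl30 8.9% to 17.8% with Gm12191, Rps23 14.9% to 27.1% with Gm15450 and Rpl26 12.6% to 29.8% with Gm15772. The summed levels of these loci, 722 to 6752 FPKM over all libraries, lay in the range of the other ribosomal protein genes. Of the 8 genes under 200 FPKM, Rpl30, Rpl34 and Rps27 thus had most of their signal under another name, Rpl7a, Rpl21, Rpl29 and Rps2 had more than 50 copies, and Rps15a was the other one. Values of the 6 shared loci are therefore uncertain, and the results below are given from both the own row and the sum.

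**Figure D3:**
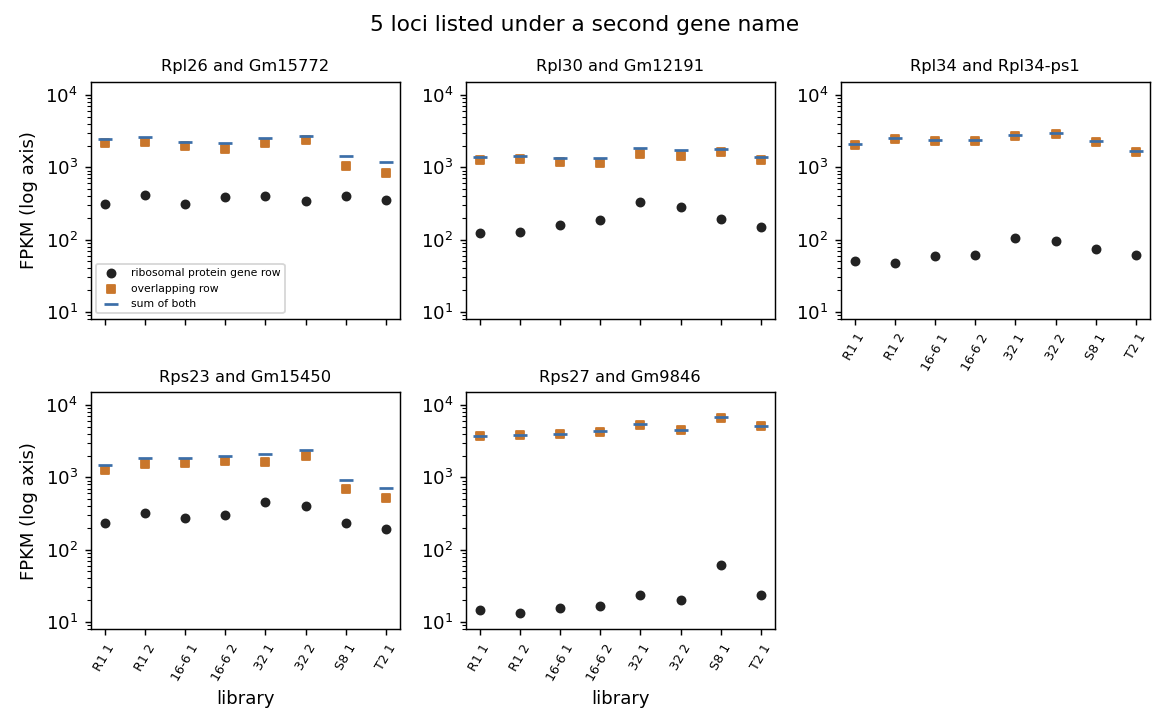
FPKM (log axis) in each library for 5 of the 6 loci listed under a second gene name, with the ribosomal protein row, the overlapping row and their sum. The overlapping row lies above the ribosomal protein row in every library and panel, and the sums of Rpl26 and Rps23 are lowest in S8 and T2.

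All 79 genes were among the 13693 rows of the limma fit on log2(FPKM + 1), and 77 had at least 1 FPKM in every library. Rpl3l passed only through 1 library of R1, and Rpl29 only through the iPSC lines, so their differences from R1 are descriptions and not tests. Every count of genes higher than in R1 below includes Rpl29, and the count of genes lower in 16-6 includes Rpl3l. Between replicates the genes had a median absolute log2 gap of 0.143 in R1, 0.064 in 16-6 and 0.133 in 32, compared with 0.061, 0.039 and 0.057 in 1109 other short genes of similar level. The widest gaps were 0.77 for Rpl17 in 32 and 0.57 for Rpl38 in R1. A difference between any of the 5 lines passed in 70 of the 79 genes (moderated F test, adjusted p below 0.05), and in 88.4% of all 13693 rows. The 9 genes that did not pass were Rpl17, Rpl18, Rpl26, Rpl36, Rpl37a, Rpl38, Rpl3l, Rps21 and Rps28. Called in either direction were 13 genes in 16-6, 51 in 32, 49 in S8, 39 in T2 and 43 for the mean of the iPSC lines, all against R1, beside 55.6%, 61.5%, 66.7%, 57.9% and 65% of all rows. Between iPSC lines, 51 were called for 16-6 against 32 and 20 for S8 against T2, beside 60.4% and 34.5%. P-values measure the spread between the libraries of R1, 16-6 and 32. S8 and T2 have 1 library each and are assumed to vary in the same way.

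As these transcripts are short (longest annotated coding transcript, median 861 bases against 2950 for all fitted rows), the shifts were set beside those 1109 other genes, whose transcripts ranged between the same 345 and 5130 bases and whose mean level lay between the 10th and 90th percentile of the ribosomal protein genes. Within that span the comparison genes were lower, with a median log2 level of 7.32 in the first R1 library against 10.58. Only 23 of them lay within the ribosomal protein genes' quartiles of level.

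In line 32, ribosomal protein genes were higher than in R1 almost throughout when all libraries were divided by the same constant. Of the 79 genes, 51 were higher and 0 lower, against 28.6% and 32.9% of all rows. The median log2 difference was 0.35 (quartiles 0.25 and 0.42), with 0.35 for the large and 0.36 for the small subunit. Both libraries of 32 lay above both of R1 in 66 genes and below in 2 (38.4% and 42.8% of all rows). The other short genes had a median of 0.27, with 63.9% called higher, and the 23 within the quartiles of level had a median of 0.37. All rows had a median of -0.02. As a share of the summed FPKM, the 79 genes made up 15.3% and 14.6% in 32 and 14.8% and 14.7% in R1. With small RNA genes set aside, the shares were 22.8% and 21.4% in 32 and 19.7% and 20.3% in R1. Among other rows over 5 on the log2 scale, the median was between 0.16 and 0.24 in every class of length, from under 500 to over 5000 bases. After every library was centred on the short genes, 16 genes were higher and 1 lower, and after quantile normalization 11 and 2. Without the first library of R1, 28 genes were called in all, and without the first of 32, 29.

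Few of these differences were large. The genes called with at least 2-fold higher levels were 3, Rpl29, Rpl30 and Rpl34 (1.54% of all rows), and 0 were as much lower (8.23%). Rpl30, which takes part in a bridge between the subunits, read 124 and 127 FPKM in R1 against 329 and 279 in 32, and both libraries of 32 lay above every other. Its log2 difference was 1.26 ± 0.10 (SE, adjusted p = 0.000522, limma), and that of the sum with Gm12191 was 0.35 ± 0.06 (adjusted p = 0.00513). Rpl34 differed by 1.01 ± 0.06 (adjusted p = 0.00026) on its own row and by 0.32 ± 0.10 (adjusted p = 0.0416) as a sum. Rps26 lay above the upper quartile of the differences, with 7185 and 6155 FPKM in R1 and 9884 and 9435 in 32, a log2 difference of 0.54 ± 0.11 (adjusted p = 0.0107). Rpl35 rose by a like amount, from 5454 and 5602 FPKM to 8043 and 8206 (0.56 ± 0.08, adjusted p = 0.00349). The summed fibroblast markers were lowest in 32. Of the 13, 12 were called lower than in R1 and 1, Acta2, higher (32.9% and 28.6% of all rows). Their part in the shift was not tested.

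Line 16-6 did not share this shift. Against R1, 10 genes were higher and 3 lower (25.7% and 29.9% of all rows), and the median log2 difference was 0.00 (quartiles -0.09 and 0.13), with 0.01 in the other short genes. In all, 7 genes were called without the first library of 16-6, 2 without the second and 8 without the first of R1. Both libraries of 16-6 were above both of R1 in 22 genes and below in 20 (37.3% and 42.6% of all rows). At 2-fold, Rpl29 was higher and Rpl10l lower (3.58% and 3.53% of all rows). Among the genes called higher were Rpl27, Rpl29, Rpl30, Rpl34, Rpl39, Rplp2, Rps9, Rps14 and Rps16. Rps14, a protein of the small-subunit platform, read 1419 and 1750 FPKM in R1 against 2217 and 2059 in 16-6 (log2 difference 0.44 ± 0.14, adjusted p = 0.045). For Rpl30 the sum with Gm12191 differed by -0.06 ± 0.06 (adjusted p = 0.452), and for Rpl34 the sum with Rpl34-ps1 differed by 0.04 ± 0.10 (adjusted p = 0.737), so both calls rest on the own rows. The sum at Rpl26 was lower by a log2 difference of -0.20 ± 0.06 (adjusted p = 0.0467), where its own row was not called.

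The genes called lower in 16-6 were Rpl10l and Rpl5, beside Rpl3l, which passed the filter only through R1. Rpl10l, the autosomal stand-in for Rpl10 in male germ cells, read 29.7 and 33.7 FPKM in R1 and 11.5 and 8.14 in 16-6. No other line was as low: 32 read 23.2 and 25.3, S8 60.9 and T2 21.6 FPKM. The difference was -1.61 ± 0.16 from R1 (adjusted p = 0.00118) and -1.24 ± 0.16 from 32 (adjusted p = 0.00208). Rpl5, which with Rpl11 and the 5S RNA binds Mdm2, read 1488 and 1535 FPKM in R1 against 1253 and 1277 in 16-6 (-0.26 ± 0.05, adjusted p = 0.00925). Rpl3l stood at 1.08 and 0.908 FPKM in R1 and at 0.313 and 0 in 16-6, too few fragments for a firm value.

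Set directly against 32, 16-6 was lower in 51 genes and higher in 0 (32.9% and 27.5% of all rows). The median was -0.32, against -0.29 in the other short genes. Both libraries of 32 lay above both of 16-6 in 71 genes and below in 1 (45.2% and 36.3% of all rows). At 2-fold, 1 gene, Rpl10l, was lower and 0 were higher (1.09% and 9.22%). This comparison shares its libraries with those above. Centring on short genes left 14 genes lower and 2 higher, and quantile normalization 10 and 2. In all, 17 genes were called without the first library of 16-6, 24 without the second and 28 without the first of 32. The sums at Rpl34, Rps23 and Rps27 were not called here (adjusted p = 0.065, 0.219 and 0.123), and the sum at Rpl26 was lower (-0.25 ± 0.06, adjusted p = 0.0213). Rpl21, on 105 to 197 implied fragments in these lines, read 5.85 and 6.85 FPKM in 16-6 and 12.4 and 11.7 in 32 (-0.83 ± 0.10, adjusted p = 0.00191).

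In S8 the ribosomal protein genes moved in both directions. Of the 79, 43 were higher and 6 lower than in R1 (32.1% and 34.6% of all rows), the median log2 difference was 0.38 and the quartiles reached from -0.05 to 0.76. The other short genes had a median of 0.30 (quartiles -0.05 and 0.65). At 2-fold, 10 were higher and 2 lower (6.93% and 9.74%). All 3 stalk genes were higher. Other rows over 5 on the log2 scale had medians of 0.46 and 0.50 in the classes of 500 to 1000 and 1000 to 1500 bases, and of -0.43 above 5000 bases. With centring on short genes 23 were higher and 20 lower, and with quantile normalization 24 and 19, so the split between the directions depended on the scale.

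Among the genes highest in S8 relative to R1, Rpl29 apart, were Rps27, Rpl7a, Rps16 and Rplp1. Rps16, a small-subunit protein near the peptidyl site, read 1995 and 2048 FPKM in R1, 2355 and 2379 in 16-6, 3020 and 2747 in 32, 5366 in S8 and 3925 in T2. S8 and T2 lay above the other 6 libraries, and the log2 difference from R1 was 1.41 ± 0.09 in S8 (adjusted p = 0.000223) and 0.96 ± 0.09 in T2 (adjusted p = 0.00107). Rpl7a, the gene with the most copies, read 13.2 and 17.3 FPKM in R1, 18.0 and 19.5 in 16-6, 20.1 and 18.8 in 32, 48.2 in S8 and 32.8 in T2. It was higher by 1.61 ± 0.16 in S8 (adjusted p = 0.00072). For Rps27, the own row differed by 2.05 ± 0.11 in S8 (adjusted p = 0.000146) and the sum with Gm9846 by 0.83 ± 0.14 (adjusted p = 0.00485).

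The stalk proteins draw translation factors to the ribosome, with Rplp0 as the base and Rplp1 and Rplp2 as mobile arms. Rplp0 read 1922 and 2255 FPKM in R1, 2339 and 2351 in 16-6, 2732 and 2301 in 32, 4049 in S8 and 3131 in T2. It was highest in S8 and T2, by 0.96 ± 0.15 and 0.59 ± 0.15 over R1 (adjusted p = 0.00323 and 0.0215). Rplp1 read 4044 and 3157 FPKM in R1, 3334 and 3755 in 16-6, 5618 and 3679 in 32, 9344 in S8 and 6674 in T2. Its replicates in 32 stood 0.61 apart, and it was higher by 1.39 ± 0.29 in S8 (adjusted p = 0.01) and by 0.90 ± 0.29 in T2 (adjusted p = 0.0479). Rplp2 went another way, with 1651 and 1806 FPKM in R1, 2161 in S8 and 1377 in T2. It was higher by 0.32 ± 0.09 in S8 (adjusted p = 0.0226) and lower by a log2 difference of -0.33 ± 0.09 in T2 (adjusted p = 0.0257).

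Among the 6 genes lower in S8 were Rpl5, Rpl22, Rpl23, Rpl37 and Rps24, and all 6 were also lower in T2, a comparison with the same R1 libraries. Rpl37, a zinc-binding protein of the large subunit, read 2113 and 2496 FPKM in R1, 2337 and 2601 in 16-6, 2892 and 2963 in 32, 1036 in S8 and 860 in T2. S8 and T2 lay below every other library, at -1.15 ± 0.13 and -1.42 ± 0.13 from R1 (adjusted p = 0.00107 and 0.000963). Rpl22, an RNA-binding protein with the paralogue Rpl22l1, read 405 and 416 FPKM in R1, 434 and 453 in 16-6, 512 and 533 in 32, 259 in S8 and 226 in T2. It was lower by -0.66 ± 0.06 in S8 and -0.86 ± 0.06 in T2 (adjusted p = 0.000455 and 0.000438). Rpl22l1, outside the name rule, was at 16.2 and 23.9 FPKM in R1, 22.0 and 25.4 in 16-6, 24.9 and 25.8 in 32, 62.3 in S8 and 56.0 in T2. S8 and T2 thus held both the lowest levels of Rpl22 and the highest of the paralogue. Rps24, a small-subunit protein mutated in Diamond-Blackfan anemia, read 4760 and 4969 FPKM in R1, 3381 in S8 and 2736 in T2 (-0.52 ± 0.10 and -0.83 ± 0.10, adjusted p = 0.0061 and 0.00189).

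The own rows of Rpl26 and Rps23 were not called in S8 or T2, while their sums were lower, by -0.83 ± 0.08 and -0.86 ± 0.17 in S8 (adjusted p = 0.000658 and 0.00743) and by -1.09 ± 0.08 and -1.21 ± 0.17 in T2 (adjusted p = 0.000559 and 0.00317). The own row of Rpl34 was higher in S8 (0.62 ± 0.08, adjusted p = 0.00159) and T2 (0.33 ± 0.08, adjusted p = 0.0183). Its sum with Rpl34-ps1 differed by -0.01 ± 0.13 in S8 (adjusted p = 0.954) and was lower in T2 (-0.46 ± 0.13, adjusted p = 0.0285), so the direction in T2 depended on the row used.

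In T2, 21 genes were higher and 18 lower than in R1 (27% and 30.9% of all rows). The median was -0.08 (quartiles -0.36 and 0.38), against 0.07 in the other short genes. At 2-fold, Rpl29 and Rpl7a were higher and 2 genes, among them Rpl37, were lower (3.95% and 6.54% of all rows). Beside the 6 genes lower in S8, those lower in T2 were Rpl12, Rpl13a, Rpl23a, Rpl28, Rpl32, Rpl35, Rpl35a, Rpl36a, Rplp2, Rps15a, Rps18 and Rps27a. Rpl35, the third highest gene, read 4005 FPKM in T2, under all other libraries (-0.46 ± 0.10, adjusted p = 0.0138). Centring on short genes gave 18 higher and 25 lower.

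S8 was above T2 in 78 of 79 genes, beside 53.4% of all rows, 83.2% of the other short genes, 97.3% of the 511 short genes within the central range of length and all 23 within the quartiles of level. Of the 79, 20 were called higher and 0 lower (16.9% and 17.6% of all rows). The median was 0.38 (quartiles 0.29 and 0.46), and the other short genes had a median of 0.27, with 45.3% called higher. Among those 511 short genes the median was 0.42. The genes called at 2-fold, all 3 higher in S8 (0.92% of all rows higher, 1.83% lower), were Rpl10l (1.46 ± 0.23, adjusted p = 0.0103), Rps27 (1.33 ± 0.12, adjusted p = 0.00341) and Rpl39l (1.02 ± 0.15, adjusted p = 0.00859). Rpl39l read 14.3 and 14.6 FPKM in R1, 14.5 and 13.0 in 16-6, 21.1 and 25.7 in 32, 26.5 in S8 and 12.5 in T2. The sum at Rps27 differed by 0.38 ± 0.16 (adjusted p = 0.134). Centred on short genes, 4 genes were called higher, and 3 with quantile normalization. Without either library of 16-6, which enter this comparison only through the shared estimate of spread, 7 were called.

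**Figure D4:**
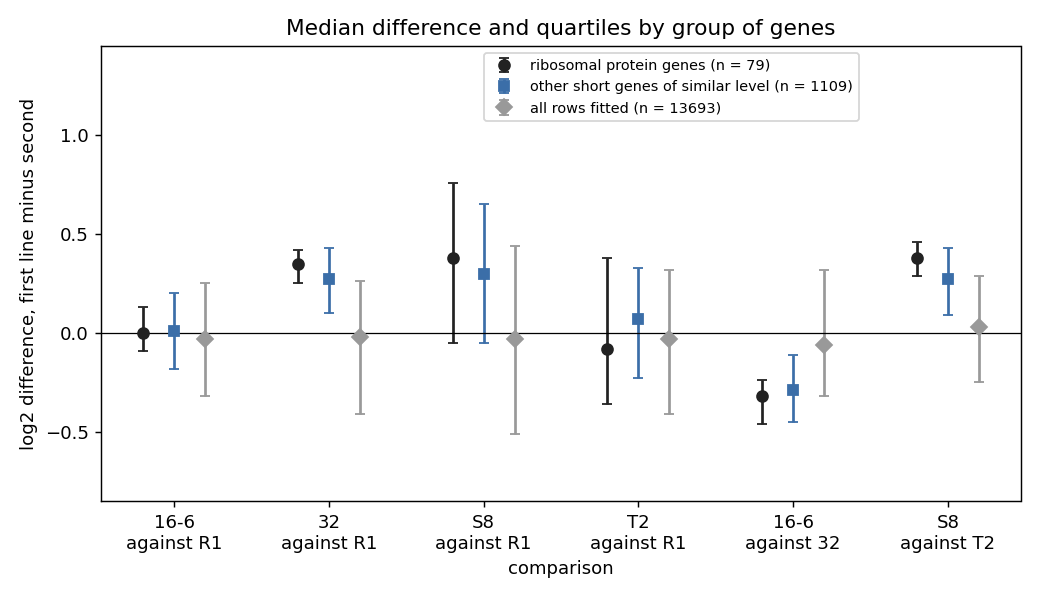
Median log2 difference (points) with quartiles (bars) in 6 comparisons of lines, for the ribosomal protein genes, 1109 other short genes of similar level and all 13693 rows fitted. The ribosomal protein genes and the other short genes lie above all rows in 32 and S8 against R1 (0.35 and 0.27, 0.38 and 0.30), and their quartile ranges overlap in every comparison.

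Rpl29, a large-subunit protein found in eukaryotes only, was lowest in R1. It read 0.588 and 0.865 FPKM in R1, 38.0 and 47.1 in 16-6, 93.4 and 76.8 in 32, 44.7 in S8 and 34.6 in T2. The R1 values rested on about 6.0 and 9.0 implied fragments, those of the iPSC lines on 270 to 889, and the groups did not overlap. On the log2(FPKM + 1) scale the difference from R1 was 4.65 ± 0.15 in 16-6, 5.64 ± 0.15 in 32, 4.73 ± 0.19 in S8 and 4.37 ± 0.19 in T2, given as a description because the gene entered the fit through the lines where it is high. This was the widest range of any of the 79 genes. Of its 50-base coding windows, 90.3% had a copy elsewhere, at 90 places. Whether those copies, or sequence differences between R1 and the iPSC lines, bear on the R1 values was not tested.

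For the mean of the 4 iPSC lines, 35 genes were higher and 8 lower than in R1 (29.9% and 35.2% of all rows). The median was 0.16, against 0.15 in the other short genes. At 2-fold, Rpl29 was higher and 0 were lower (1.85% and 4.56%). Among the lower genes were Rpl5, Rpl10l, Rpl13a, Rpl22, Rpl23, Rpl37 and Rps24. In each of these, line means lay on both sides of R1, with S8 above it for Rpl10l and 32 above it for the others. Quantile normalization gave 15 higher and 15 lower, and centring on short genes 21 and 14. Without the first library of R1, 26 genes were called in all.

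**Figure D5:**
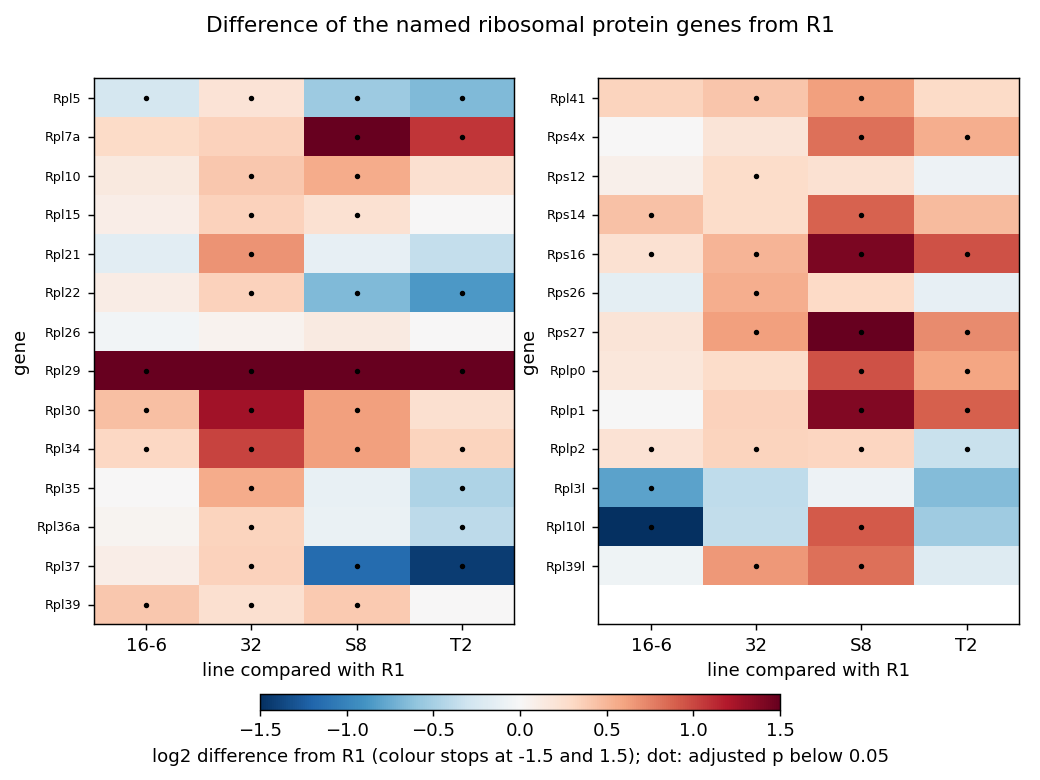
Log2 difference from R1 of the ribosomal protein genes named by the rule on level, difference, range and place (rows, ordered by subunit, stalk and paralogues) in the 4 iPSC lines (columns). Red is higher and blue lower than R1, colours stop at -1.5 and 1.5, and dots mark adjusted p below 0.05. Rpl29 is red in every line, and Rpl37 is blue in S8 and T2 only.

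The X-linked members were Rpl10, Rpl36a, Rpl39 and Rps4x. Rpl10, needed for the last step of large-subunit maturation, read 2033 and 2246 FPKM in R1, 2365 and 2368 in 16-6, 2996 and 2679 in 32, 3140 in S8 and 2526 in T2, and was higher in 32 (0.41 ± 0.09, adjusted p = 0.0124) and S8 (0.56 ± 0.11, adjusted p = 0.00745). Rps4x was higher in S8 and T2 (0.83 ± 0.09 and 0.54 ± 0.09, adjusted p = 0.000842 and 0.00483). Rpl39 was higher in 16-6, 32 and S8, by 0.24 to 0.40. Rpl36a was higher in 32 (0.33 ± 0.09, adjusted p = 0.0232) and lower in T2 (-0.39 ± 0.11, adjusted p = 0.0298). The narrowest ranges of line means on the log2 scale were 0.18 for Rpl26, 0.34 for Rpl15 and 0.34 for Rps12. For Rpl26 this holds for the own row and not for the sum described above.

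Genes of ribosome production under other names were counted in the same way, and the lists were not tested against each other. Over all rows, 25.7% were higher and 29.9% lower than in R1 in 16-6, 28.6% and 32.9% in 32, 32.1% and 34.6% in S8, and 27% and 30.9% in T2. Of the other short genes used above, 27.9% were higher and 25.7% lower in 16-6, and 63.9% and 10.2% in 32. The lists were not counted again after centring or quantile normalization. In 32, 38 of 43 ribosome biogenesis factors, 10 of 14 RNA polymerase I genes and 15 of 18 translation factors and other TOP messengers were higher than in R1, with medians of 0.41, 0.34 and 0.32. In these lists, 1 gene, Eif4a2, was lower there. In 16-6, the counts higher and lower were 9 and 8 for the biogenesis factors, 4 and 6 for RNA polymerase I and 1 and 3 for the translation factors. In S8, they were 29 and 8, 9 and 3, and 11 and 2, and in T2 24 and 7, 6 and 6, and 6 and 2. Of the 76 mitochondrial ribosomal proteins, 46 were higher in 32, 56 in S8, 33 in T2 and 11 in 16-6, with 3, 4, 14 and 9 lower. Rrp9, a U3 particle protein, read 71.0 and 76.7 FPKM in R1, 74.7 and 79.0 in 16-6, 101 and 96.8 in 32, 247 in S8 and 143 in T2. Bop1, a factor of large-subunit assembly, read 55.8 and 66.0 FPKM in R1, 79.3 and 79.0 in 16-6, 81.1 and 84.3 in 32, 154 in S8 and 109 in T2. Eif4a2, a helicase paralogue of translation initiation, went lower, from 312 and 316 FPKM in R1 to between 189 and 261 in the iPSC lines (mean of the iPSC lines -0.56 ± 0.03, adjusted p = 0.000172).

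The counts of the next lists stand beside the same shares of all rows, 25.7% to 32.1% higher and 29.9% to 34.6% lower, and with 8 to 15 genes a list several were near them. Of the 10 ribosomal protein genes outside the name rule, 8 were fitted, and 0 were higher and 1 lower in 16-6, 4 and 0 in 32, 6 and 1 in S8, and 1 and 2 in T2. Fau, a small-subunit protein made as a fusion with a ubiquitin-like protein, read 1962 and 1766 FPKM in R1, 1786 and 1841 in 16-6, 2536 and 2081 in 32, 3119 in S8 and 2269 in T2. Of 15 regulators, among them mTORC1 subunits and Myc genes, 2 were higher and 4 lower in 16-6, 6 and 2 in 32, 5 and 6 in S8 and 3 and 4 in T2. Mycn read 214 and 230 FPKM in R1, 127 and 126 in 16-6, 135 and 143 in 32, 257 in S8 and 200 in T2. Larp1, which binds TOP messengers, read 118 and 121 FPKM in R1, 134 and 127 in 16-6, 153 and 153 in 32, 188 in S8 and 170 in T2. Of 8 genes of the p53 response to ribosomal stress, 2 were higher and 3 lower in 16-6, 1 and 4 in 32, 2 and 5 in S8, and 0 and 5 in T2. Cdkn1a, the p53 target that halts the cell cycle, read 119 and 125 FPKM in R1, 193 and 191 in 16-6, 53.7 and 57.1 in 32, 47.8 in S8 and 53.3 in T2.

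The genes whose levels followed the mean log2 level of the 79 most closely over the 8 libraries were Cuta (Pearson r = 0.986), 4930500J02Rik and Eif1 (both 0.979), Gdf3 (0.977) and Atp5o (0.976), given as a description over libraries that include replicates. Eif1, a factor of start codon choice, read 286 and 276 FPKM in R1, 289 and 297 in 16-6, 429 and 407 in 32, 398 in S8 and 291 in T2.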

How the data were processed

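RNA of 5 lines was measured in 8 oligo(dT)-enriched, paired-end libraries. The authors aligned reads with TopHat 2.0.4 against the UCSC gene set (mm9), retained unique alignments and deposited FPKM values with confidence limits from Cufflinks (2.0.0 per the submitters' processing notes). The unit is named RPKM in the methods. Files were joined on gene, locus and start site (22878 rows), and all values were divided by 12725.7, which sets the median library total to 1000000. Counts were not used. The fragments behind a value were implied by its limits: the FPKM, times 2, was divided by its distance to the upper limit, and the quotient squared. This reads the limits as counting error only, which did not hold at some loci shared with a second row. Rpl26, at 310 and 393 FPKM in 16-6, had 764 and 4.04 implied fragments. The result is on the scale of the deposited values, not the number sequenced.

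Rows that reached 1 FPKM in any library (13693) were fitted as log2(FPKM + 1) with limma 3.58.1 (R 4.3.3, trend), by line, on all 8 libraries with 3 residual degrees of freedom. Differences of low genes are understated on this scale. Calls had a Benjamini-Hochberg adjusted p below 0.05. The fit was tested on simulated data. Copies were exact 50-base matches in NCBIM37 outside the gene's own locus, and matches within 10 kb of each other were counted as the same place. Coordinates of rows are mm9, counted from 1. Python 3.11.15 with pandas 2.3.3, numpy 2.4.6 and scipy 1.17.1 was used for the rest.

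Genes named were the 3 highest and 3 lowest members, the 3 largest called differences each way in each comparison, the 3 widest and 3 narrowest ranges, the stalk, X-linked and restricted members, and up to 4 called genes of each other list. Rps24, Rps9 and others in lists of calls were named after their values were seen. Some members are not reported here. The members and lists were chosen with earlier results of these data known. Alternatives were other pseudocounts, filters, scalings, fits without a trend, with a replicate block or without each replicate, and summed loci. The extraction text of the labels speaks of embryos, whereas the methods describe cell pellets. For 21 members no promoter entry was used, among them Rpl3, Rpl7, Rpl8, Rpl17, Rpl21, Rpl23a, Rpl29, Rpl30, Rpl32, Rpl36, Rplp1, Rps3a, Rps14, Rps20, Rps27a and Rps29.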

Additional observations from a re-analysis of the deposited data

Results flagged for a closer look

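Rpl5 was lower than R1 in 16-6 and higher in 32, both lines of mesodermal origin. The log2 differences from R1 were -0.26 and 0.20, and the difference between the lines, tested within the limma fit, was -0.45 (adjusted p = 0.00115). That difference lay within the quartiles of all 79 genes for 16-6 against 32 (median -0.32, quartiles -0.46 and -0.24). In 32 against R1, the 0.20 of Rpl5 was under their lower quartile of 0.25. Both libraries of 16-6 (1253 and 1277 FPKM) lay below both of 32 (1729 and 1733 FPKM), with R1 between them.

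Rplp2 was higher than R1 in S8 and lower in T2. The log2 differences were 0.32 and -0.33, and the difference between S8 and T2 was 0.65 (adjusted p = 0.00989), from 1 library each.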

How the results depend on the processing

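The median differences followed the scale. With quantile normalization they were 0.02 (32), 0.05 (S8) and 0.01 (T2) against R1, 0.04 for the mean of the iPSC lines, -0.01 for 16-6 against 32 and 0.03 for S8 against T2. Calls were then 13 (32), 12 (16-6 against 32) and 3 (S8 against T2), and 44 genes differed between any lines. Centring on short genes, which took 0.21, 0.34 and 0.07 off 32, S8 and T2 for every gene, gave medians of 0.13, 0.04 and -0.15, 0.00 for the mean of the iPSC lines, -0.11 for 16-6 against 32 and 0.11 for S8 against T2, with 17, 16 and 4 calls in 32 against R1, 16-6 against 32 and S8 against T2. Requiring 2-fold left 2 (16-6), 3 (32), 12 (S8) and 4 (T2) calls against R1, 1 for the mean of the iPSC lines, 1 for 16-6 against 32 and 3 for S8 against T2. Without a filter on low values, the calls were 7, 24 and 21 in 16-6, 32 and T2, and 22 for 16-6 against 32. They were 7 for S8 against T2, 26 for the mean of the iPSC lines and 39 between any lines. That fit held all 22878 rows, so both the estimate of spread and the adjustment changed. Which of these lowered the calls was not tested. With at least 1 FPKM in every library, 34 were called for S8 against T2.

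Leaving out each replicate in turn, calls ranged from 2 to 15 in 16-6 (2 without the second library of 16-6), 28 to 50 in 32 (28 without the first of R1), 43 to 51 in S8, 27 to 39 in T2, 17 to 50 for 16-6 against 32 (17 without the first of 16-6), 7 to 26 for S8 against T2 (7 without either of 16-6), 26 to 41 for the mean of the iPSC lines and 51 to 70 between any lines. The medians ranged from -0.04 to 0.04, 0.29 to 0.39, 0.32 to 0.42, -0.13 to -0.04, -0.36 to -0.29, 0.38 to 0.38 and 0.14 to 0.21, in the order of 16-6, 32, S8, T2, 16-6 against 32, S8 against T2 and, last, the iPSC mean. The cause was not tested.

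Replicate numbers did not pair the samples: deviations of same-numbered libraries correlated at -0.097 (R1 and 16-6), 0.001 (R1 and 32) and 0.028 (16-6 and 32) over all rows, and at -0.02, 0.267 and -0.174 over the ribosomal protein genes. In the 6 libraries of R1, 16-6 and 32, the replicate block gave 12, 43 and 44 calls for 16-6 and 32 against R1 and 16-6 against 32, and the fit without it 13, 51 and 49. The mean of the iPSC lines, there of 16-6 and 32 only, gave 22 with the block and 26 without, and 45 genes differed between any lines with the block. In both fits Rpl37 turned to 0.23 for that mean, as S8 and T2 were absent.

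The sums of overlapping rows were added after seeing the data. They turned Rpl30 to -0.06 in 16-6. Of 402 refits of 29 named differences, 372 kept their direction and call, 27 lost the call and 3 reversed. These 29 were picked as the largest called differences and include those of Rpl29 and Rpl3l. The share kept therefore does not measure how stable the other calls are. The calls of Rpl3l (6 refits), Rps14 (5), Rpl30 (4) and Rpl5 (2) in 16-6 and of Rpl10l for the mean of the iPSC lines (7) were those lost most often. Precision is limited by 1 library each of S8 and T2 and by the few implied fragments of the lowest genes.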
